A study of Mus musculus with 3 samples.

Results

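Pigment production in dorsal mouse skin was followed through 10 genes, namely Tyr, Tyrp1, Dct, Pmel, Mlana, Mitf, Kit, Kitl, Mc1r and Pomc. The set was defined by name, as the pigment enzymes and matrix proteins, their transcription factor, and the receptor and ligand of the KIT and MC1R axes. All 10 genes were present among the 32285 genes of the deposited matrices. Their RNA was described in melanocytes, hair follicle epithelium, mast cells and stroma.

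Melanocytes make melanin inside melanosomes, organelles that they pass to neighbouring keratinocytes. Tyrosinase (Tyr) catalyses the rate-limiting step, and the related enzymes Tyrp1 and Dct act further along the eumelanin pathway. Pmel forms the fibrils on which pigment is laid down, and Mlana is a melanosomal membrane protein. Mitf is the transcription factor that drives these genes. Kit is the receptor for stem cell factor, encoded by Kitl, and the pair is needed by melanocytes and by mast cells. Mc1r is the melanocortin receptor of melanocytes, and Pomc encodes the precursor from which its peptide ligands are cut. In haired mouse skin most melanocytes sit in the hair follicle, as stem cells in the bulge and as pigment-making cells in the bulb of growing hairs.

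The study asked how repeated ultraviolet light changes skin cells and whether a topical JAK inhibitor alters that response. The mice were wild type C57BL/6J, labelled female, with a stated age of 8 weeks, which the authors give for the mice as bought. Control mice (CON) received no radiation. UV mice were exposed every other day for 12 weeks to UVA at 0.60 mW/cm2 together with UVB at 3.5 mW/cm2. Rux mice received the same exposure followed by an ointment with 1.5% ruxolitinib, an inhibitor of JAK1 and JAK2. The authors list vehicle without the drug for the CON and UV groups, which the treatment labels do not mention. Skin of the irradiated mice was collected 24 h after the last exposure. Each condition was represented by 1 library of single cells, and the number of mice behind a library is not given in the sources used here. No difference between conditions therefore has a replicate check, and every interval below is a 95% interval that covers counting error only.

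After filtering, 10777 CON, 10231 UV and 9299 Rux cells remained, with a median of 7549, 7669 and 9438 UMIs (counted RNA molecules) per cell. The RNA did not match the sex label in any of the 3 libraries. Xist, made by the inactive X chromosome, had 13 to 14 UMIs per library, and the Y-linked gene Ddx3y stood at 110 to 121 CPM (counts of a gene for each 1000000 UMIs). Between 28 and 50 cell barcodes were shared by each pair of libraries. Cells fell into 45 clusters, formed without the 10 genes and the pathway genes listed with them. A cluster was given a cell type name with the ending "-like" only from markers outside the 10 genes, and otherwise carries the name of a leading gene.

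The DNA before the start sites shows where the factor encoded by Mitf could be read, since MITF is known to bind the M-box, TCATGTG, around the core CATGTG. Windows of 250 bases before the RefSeq start (build GRCm38.p6) were held for 8 of the 10 genes, in 11 windows. The windows with a match are printed 5′ to 3′ on the strand of the gene. Capitals mark an M-box or its core in Tyr, Tyrp1, Dct and Mc1r, and in Mitf the cyclic AMP response element TGACGTCA, each searched on both strands. The Tyr window is chr7:87493513-87493762 on the minus strand, the Tyrp1 window chr4:80833963-80834212 on the plus strand, and the Dct window chr14:118052247-118052496 on the minus strand. The Mc1r window is chr8:123406832-123407081 and the Mitf window chr6:97991533-97991782, both on the plus strand.
Tyr: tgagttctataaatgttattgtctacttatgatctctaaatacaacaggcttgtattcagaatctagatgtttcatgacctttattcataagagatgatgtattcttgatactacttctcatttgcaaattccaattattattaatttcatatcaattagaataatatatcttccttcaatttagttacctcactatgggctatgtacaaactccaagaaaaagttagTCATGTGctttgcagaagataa
Tyrp1: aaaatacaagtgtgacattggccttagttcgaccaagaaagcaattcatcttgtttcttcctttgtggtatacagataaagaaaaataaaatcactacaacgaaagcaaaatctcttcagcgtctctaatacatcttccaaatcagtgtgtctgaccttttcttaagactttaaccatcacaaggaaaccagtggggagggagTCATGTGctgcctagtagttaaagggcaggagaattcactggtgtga
Dct: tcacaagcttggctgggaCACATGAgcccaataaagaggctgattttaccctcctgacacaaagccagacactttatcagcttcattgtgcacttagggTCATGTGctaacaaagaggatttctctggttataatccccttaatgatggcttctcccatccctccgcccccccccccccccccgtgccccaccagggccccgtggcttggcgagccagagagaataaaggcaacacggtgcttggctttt
Mc1r: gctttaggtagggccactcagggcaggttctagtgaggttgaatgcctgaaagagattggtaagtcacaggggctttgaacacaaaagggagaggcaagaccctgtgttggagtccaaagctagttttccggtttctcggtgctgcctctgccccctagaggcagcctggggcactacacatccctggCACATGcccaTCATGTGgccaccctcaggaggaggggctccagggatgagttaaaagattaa
Mitf: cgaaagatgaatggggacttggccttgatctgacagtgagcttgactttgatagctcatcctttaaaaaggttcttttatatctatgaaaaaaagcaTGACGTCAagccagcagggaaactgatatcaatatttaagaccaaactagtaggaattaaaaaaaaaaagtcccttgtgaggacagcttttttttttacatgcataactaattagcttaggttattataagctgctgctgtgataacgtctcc
Counting the last base before the start as -1, the M-box began at -22 in Tyr, at -47 in Tyrp1, at -232 and -151 in Dct and at -52 in Mc1r, where a further core began at -62. The element in the Mitf window began at -153. Of 32851 RefSeq windows of this length, 3.25% held the M-box, 12.3% the core, which every M-box includes, and 1.55% the cyclic AMP response element. The windows of Kit, Kitl, Pomc and the other Mitf starts held none of these letters.

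On a GRCm38 annotation other than RefSeq the 10 genes lie on 9 chromosomes. Its starts are not those of RefSeq for every gene, so windows of Tyrp1, Kit, Kitl and Mitf reach into the spans given here. Tyr spans chr7:87424771-87493512, Tyrp1 chr4:80834123-80851719, Dct chr14:118012790-118052244, Pmel chr10:128704195-128720238 and Mlana chr19:29697824-29708634. Mitf spans chr6:97807052-98021349, Kit chr5:75574916-75656722, Kitl chr10:100015630-100100416, Mc1r chr8:123407107-123410744 and Pomc chr12:3954951-3960642. Pmel overlaps Cdk2 and Dgka, Dct overlaps 4930435M08Rik, Mitf overlaps Gm15531, and Mc1r overlaps Gm20388 and Gm38092. How reads in the shared stretches were counted was not examined.

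Pigment cells were fewer in both irradiated libraries. The melanocyte-like class held 159 of 10777 CON cells, 65 of 10231 UV cells and 35 of 9299 Rux cells. Their shares were 1.48% in CON (exact interval 1.26 to 1.72), 0.635% in UV (0.491 to 0.809) and 0.376% in Rux (0.262 to 0.523), and these intervals do not overlap between CON and the irradiated libraries. All 7 melanocyte markers used for the name, among them Oca2, Slc24a5 and Trpm1, were detected in each library. The markers summed to 5104, 5663 and 6908 CPM in the class of CON, UV and Rux, against 11.9, 17.7 and 8.51 CPM in all other cells.

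The follicle was also recovered in different numbers, given beside the shares because most melanocytes of haired mouse skin sit there. The position of the captured cells was not measured. Per 100 bulge-like cells there were 27.3 melanocyte-like cells in CON, 28.9 in UV and 31.0 in Rux. Per 100 cells of the proliferating Top2a cluster there were 20.8, 13.6 and 13.7. Per 100 root-sheath-and-shaft-like cells there were 54.5, 14.6 and 9.41. Against the Dlx2 cluster the ratio was 26.02, 23.8 and 19.4, and against dermal-papilla-like cells 63.1, 24.6 and 37.6. The ratio thus held against bulge-like cells, whose number was 583, 225 and 113, and was lower in both irradiated libraries against the 4 other groups, by the least in the Dlx2 cluster of UV. The part of follicle recovery in the lower share was not tested.

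Summed over whole libraries, the pigment genes followed the cell numbers. Tyr stood at 56.6 CPM in CON, 16.7 in UV and 11.7 in Rux, and Dct at 648, 195 and 127. Tyrp1 was at 140, 49.4 and 33.3 CPM, Pmel at 287, 91.9 and 56.3, and Mlana at 110, 46.1 and 38.1. All 5 genes were highest in CON and lowest in Rux. Mitf ran the other way, with 48.8, 75.02 and 129 CPM, while Kit stayed at 20.5, 21.3 and 23.3. Kitl was at 150, 168 and 100.2 CPM.

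Where each RNA was counted differed between these genes. In CON, melanocyte-like cells held between 93.0% and 96.3% of the UMIs of each of the 5 pigment genes, 82.8% of those of Mc1r and 77.6% of those of Kit. They held only 10.6% of the Mitf UMIs, of which fibroblast-like cells held 41.8%. In Rux the melanocyte-like share of Kit UMIs was 11.9%, with 33.8% in mast-cell-like cells and 18.2% in the Top2a cluster. The nearly level Kit total of the whole libraries was therefore made by different cells in CON and in Rux. In such sums fewer cells of a type and less RNA per cell cannot be told apart, so levels inside each class follow.

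**Figure D1:**
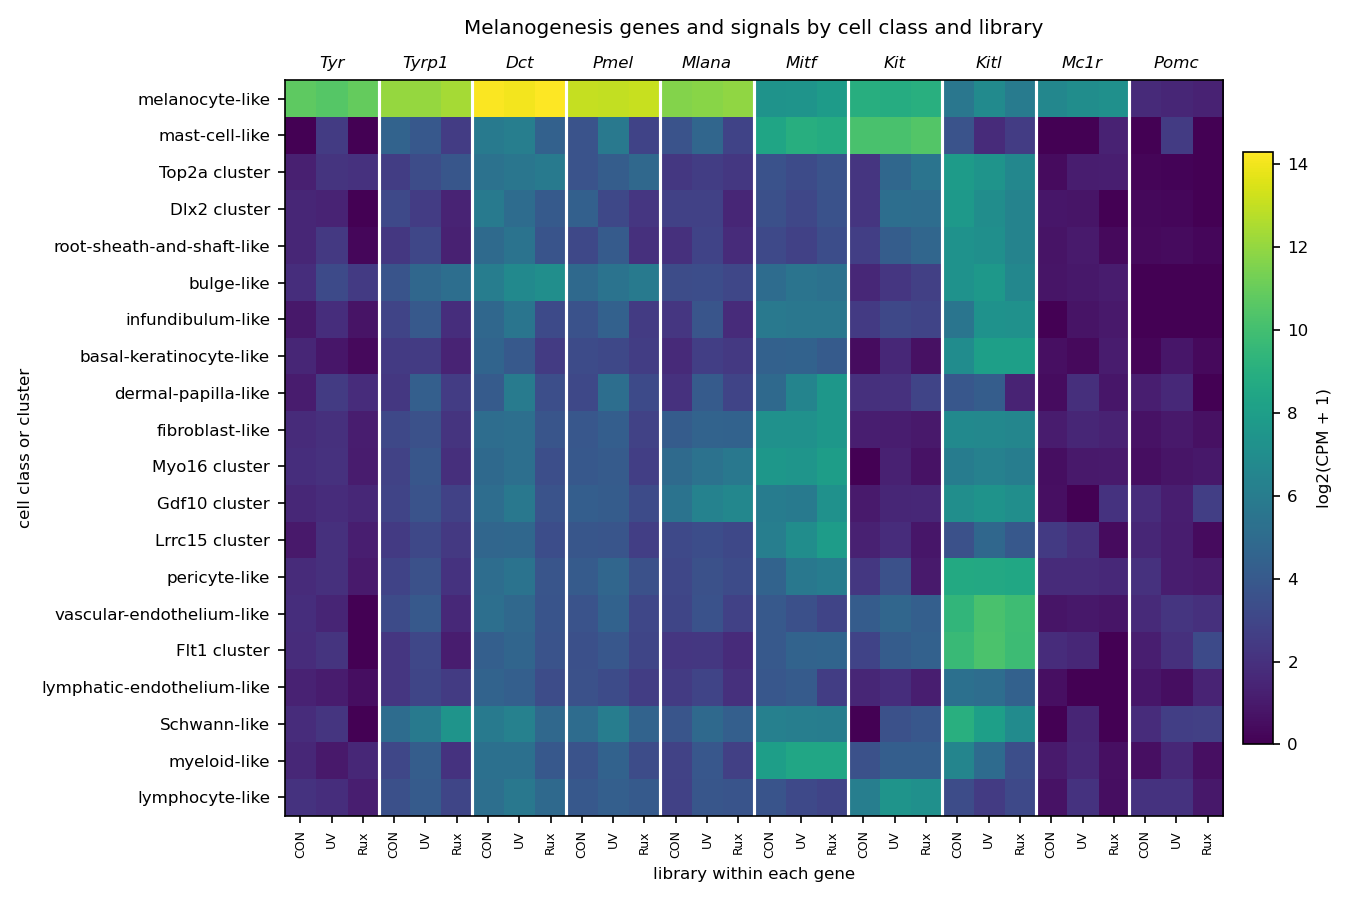
Level of each of the 10 genes (log2 of CPM + 1, colour scale) in 20 cell groups (rows) of the CON, UV and Rux libraries, each value being a sum of UMIs over all cells of the group. Pigment genes peak in melanocyte-like cells, Kit in mast-cell-like and melanocyte-like cells, and Kitl and Mitf are spread over many groups.

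Inside the melanocyte-like cells the enzymes were held at similar pooled levels in the 3 conditions. Tyr was at 1705 CPM in CON, 1488 in UV and 1930 in Rux. Tyrp1 was at 4158, 4211 and 5233 CPM, and Dct at 19004, 16894 and 20171 CPM. On the log2 scale UV minus CON was -0.20 for Tyr, 0.02 for Tyrp1 and -0.17 for Dct, and Rux minus UV was 0.38, 0.31 and 0.26. These differences are all well under 2-fold, the size used here for a call.

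The melanosomal proteins and the transcription factor behaved alike in pooled level. For Mlana the median cell had the opposite order of the conditions, as described below. Pmel was at 8501, 8039 and 8799 CPM in CON, UV and Rux, and Mlana at 3210, 3439 and 3948. Mitf, which is known to activate these genes, was at 162, 165 and 232 CPM. Its pooled log2 difference was 0.03 for UV minus CON and 0.49 for Rux minus UV, again under 2-fold. In cells below 10000 UMIs Rux stood further above UV, as described below.

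The receptors of both paracrine axes were also under 2-fold apart in pooled level. For Mc1r the pooled level differed from that of a typical cell, as described below. Kit was at 496 CPM in CON, 456 in UV and 516 in Rux. Mc1r was at 98.0, 126 and 144 CPM, from 442, 135 and 90 UMIs. The log2 difference for UV minus CON was -0.12 for Kit and 0.36 for Mc1r.

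Among 9 of the 10 genes that passed the minimum of 10 CPM and 20 UMIs in these cells, 1 was past 2-fold in UV against CON, in the upward direction. The background was 2.33% of 8753 genes higher and 2.05% lower. For Rux against UV, 0 of 9 were past 2-fold, where 4.94% of 8336 genes were higher and 4.28% lower. For Rux against CON the count was also 0 of 9, beside 6.15% higher and 4.56% lower. The median log2 difference of the 9 genes was 0.02 for UV against CON.

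The gene past 2-fold was Kitl, the ligand rather than the receptor. It was at 50.6 CPM in CON, 112 in UV and 60.9 in Rux, from 228, 120 and 38 UMIs. UV was above CON by 1.15 on the log2 scale (0.81 to 1.47), and Rux was below UV by 0.87. Few cells carried this RNA, since a Kitl UMI was found in 49 of 159, 17 of 65 and 8 of 35 cells. The top 5 cells held 41.2% of the Kitl UMIs in CON, 81.7% in UV and 92.1% in Rux. With every cell given equal weight the log2 difference between UV and CON was 0.20, and with presumed doublets kept it was 0.66, both under 2-fold, so the call holds only without presumed doublets and rests on a few UV cells with many UMIs.

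Kitl was also read by the depth of the melanocyte-like cells. Among cells with more than 40000 UMIs, Kitl was at 88.3 CPM in CON, 216 in UV and 168 in Rux. Between 10000 and 40000 UMIs it was at 13.5, 31.5 and 18.3 CPM. Below 10000 UMIs the order of CON and UV was the other way round, at 97.2, 26.7 and 57.4 CPM from 13, 5 and 5 UMIs. The deepest cells also carried basal keratinocyte markers at 781, 618 and 1732 CPM, against 150, 60.6 and 141 in the middle range. They carried infundibulum markers at 943, 990 and 1771 CPM, against 179, 70.3 and 86.3. The part of keratinocyte RNA in the Kitl value was not tested.

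Cell by cell, the pigment genes varied widely in each library. The summed level of the 5 pigment genes ran from 4272 to 79710 CPM around a median of 36113 in CON. In UV it ran from 3016 to 98139 around 29914, and in Rux from 5485 to 84518 around 32000. The 3 ranges overlap almost fully. All 259 cells had Dct and Pmel UMIs, and at most 5 cells of a library lacked Tyr.

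Pooled levels differed from those of a typical cell for several genes. For Tyr the median cell had 1543 CPM in CON, 1109 in UV and 1296 in Rux. It had 19630, 16267 and 17927 CPM of Dct and 8098, 5783 and 7542 of Pmel. CON was the highest in these medians, whereas Rux was the highest in pooled level. For Tyrp1 Rux was the highest in both. The median cell had 3034 CPM of Mlana in CON, 1410 in UV and 1096 in Rux, the opposite order to the pooled levels. Cells at the 90th percentile had 6068, 6789 and 8802 CPM. The irradiated melanocyte-like cells thus had lower middle values and higher 90th percentiles of Mlana. Some of the upper UV values came from very shallow cells, such as 11844 and 16467 CPM in cells with 591 and 668 UMIs. The part of depth in this spread was not tested.

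For Mc1r the median cell was at 64.4 CPM in CON and at 0 in UV and Rux. A Mc1r UMI was present in 113 of 159 CON cells, 24 of 65 UV cells and 13 of 35 Rux cells. After thinning each cell to 2000 UMIs the shares were 17.1%, 8.20% and 8.57%. The irradiated shares were the lower ones, but they rest on few cells and are given without intervals. The top 5 cells held 17.6% of the Mc1r UMIs in CON, 57.0% in UV and 80.0% in Rux.

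Depth differed between the groups, with a median of 21941 UMIs per melanocyte-like cell in CON, 10464 in UV and 11685 in Rux. Below 10000 UMIs there were 24 CON, 32 UV and 14 Rux cells. In those shallow cells Mlana was at 2466, 1598 and 1251 CPM and Mc1r at 120, 48.1 and 11.5 CPM, falling in that order. In the middle depth range Mlana was at 3627, 3037 and 5177 CPM and Mc1r at 113, 96.9 and 207 CPM, with Rux the highest. Kit in the shallow cells was at 583, 599 and 390 CPM. Mitf in the shallow cells was at 262, 224 and 608 CPM, from 35, 42 and 53 UMIs. It was at 199, 240 and 193 CPM in the middle range and at 114, 76.1 and 116 above 40000 UMIs. Above 40000 UMIs, with 32 CON, 8 UV and 2 Rux cells, Mlana was at 2800, 4517 and 2430 CPM and Mc1r at 79.7, 182 and 64.6 CPM, with UV the highest. Tyr was at 1345, 983 and 838 CPM in the shallow cells and at 1871, 1343 and 2358 in the middle range. Above 40000 UMIs Tyr was at 1545, 1815 and 1487 CPM. The order of the conditions for Mlana, Mc1r and Tyr thus differed between the 3 depth ranges.

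**Figure D2:**
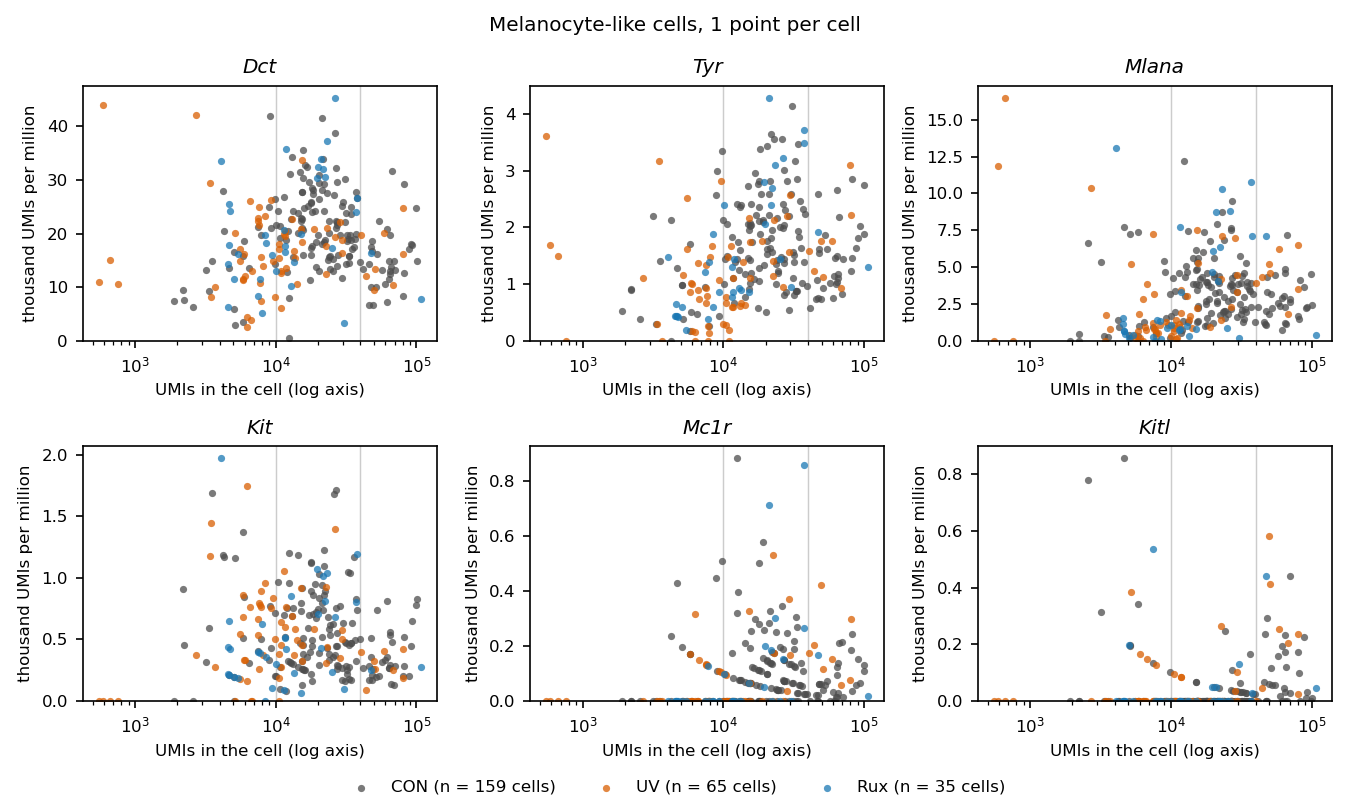
Level of Dct, Tyr, Mlana, Kit, Mc1r and Kitl in CPM divided by 1000 (vertical axes) against the UMIs of the cell (log axis), with each point a melanocyte-like cell of CON (159), UV (65) or Rux (35) and grey lines at 10000 and 40000 UMIs. Irradiated cells have a lower median depth than CON cells but overlap them. Low Mlana values gather below 10000 UMIs, and Mc1r and Kitl rest on few cells in UV and Rux.

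Other melanocyte genes were read from lists of related function. Of 20 melanosome genes, 18 passed the minimum, and 1 was higher and 0 lower in UV. Of all genes in these cells, 2.33% were higher and 2.05% lower. The gene that was higher is Slc7a11, the cystine transporter tied to red and yellow pheomelanin. It was at 9.76 CPM in CON, 53.1 in UV and 8.01 in Rux, a log2 difference of 2.44 (1.85 to 3.05) for UV against CON and of -2.61 for Rux against UV. Rab27a, which helps carry melanosomes, was at 260, 186 and 272 CPM, and the copper transporter Atp7a at 62.8, 94.2 and 72.1. The median log2 difference of the 18 genes was 0.09.

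Of 16 melanocyte factors and receptors, 15 passed the minimum, and 1 was lower and 0 higher in UV, beside 2.05% of all genes lower. That gene was Lef1, which carries Wnt signals to melanocyte genes, at 82.9 CPM in CON, 40.1 in UV and 60.9 in Rux. Pax3, a regulator of melanocyte stem cells, was at 565, 424 and 477 CPM. The endothelin receptor gene Ednrb was at 714, 723 and 953 CPM.

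Of the 16 genes of KIT signalling and shedding, 15 passed in melanocyte-like cells, and 0 were past 2-fold in UV against CON. Jak2, a kinase that ruxolitinib inhibits, was at 81.8 CPM in CON, 50.3 in UV and 101 in Rux. It was past 2-fold for Rux against UV at 1.00 on the log2 scale (0.46 to 1.55), beside 4.94% of genes higher. Of 13 genes of POMC processing and MC1R signalling, 12 were found and 7 passed the minimum, with 0 past 2-fold in any of the 3 contrasts. Gnas, the G protein subunit that couples MC1R to cyclic AMP, was at 1443, 1306 and 1047 CPM.

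Mast cells are the other KIT-dependent cells of skin, and their numbers went the opposite way to the melanocytes. The mast-cell-like cluster held 63 CON, 171 UV and 211 Rux cells, with a median of 950, 1232 and 1655 UMIs per cell. All 7 mast cell markers, including Cpa3 and Mcpt4, were detected, and their sum was 49500, 65815 and 65713 CPM. Fibroblast markers summed to 3995 CPM in the CON cells of this cluster, 441 in UV and 666 in Rux, and their part in the values below was not tested.

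Kit was kept in these cells. It was at 1191 CPM in CON (104 UMIs), 1174 in UV (501 UMIs) and 1443 in Rux (914 UMIs). A Kit UMI was seen in 46 of 63, 129 of 171 and 179 of 211 cells. At 2000 UMIs per cell, which left 6 CON, 61 UV and 83 Rux cells, the shares were 100%, 88.5% and 91.6%. The log2 difference was -0.03 (-0.33 to 0.30) for UV against CON and 0.30 (0.14 to 0.46) for Rux against UV. The sign of the first value turned to 0.22 when libraries were scaled by median of ratios, which moved all genes of this class by 0.25.

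Mitf is also used by mast cells, where it supports Kit and protease genes. It was at 332 CPM in CON (29 UMIs), 497 in UV (212 UMIs) and 448 in Rux (284 UMIs). UV was above CON by 0.56 (0.02 to 1.19), under 2-fold and within reach of the small CON count. Among the 4 of the 10 genes that passed the minimum for UV against CON, 1 was higher, beside a background of 9.78%. That gene was Pmel, with 1 UMI in CON and 23 in UV, a gene that mast cells are not known to make.

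The KIT signalling list had 13 of 16 genes passing in mast-cell-like cells, with 4 higher and 0 lower in UV. Of all genes in the class, 9.78% were higher. Adam10, a protease that can cut membrane proteins, was at 22.9 CPM in CON and 113 in UV, but from 2 and 48 UMIs. Gab2, an adaptor below KIT, was at 756, 1383 and 1434 CPM, which is 0.86 on the log2 scale for UV against CON. The list median was 0.40. Median-of-ratios scaling moved all genes of the class upward by 0.25 for UV against CON, so it would raise this median.

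Outside melanocytes and mast cells, Kit was higher in some epithelial groups of irradiated skin. The Top2a cluster, whose leading genes are histones and other cell division genes, is unnamed because inner root sheath and basal keratinocyte markers scored close together. There Kit was at 3.62 CPM in CON, 26.5 in UV and 44.9 in Rux, from 108, 513 and 492 UMIs. The log2 difference was 2.87 (2.57 to 3.19) for UV against CON and 0.76 for Rux against UV. Of the 4 of the 10 genes passing in this comparison, Kit alone was past 2-fold upward, beside a background of 2.04% of 8298 genes. For Rux against CON the difference was 3.63 (3.33 to 3.95), beside 2.45% higher.

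Other epithelial groups had the same order or close to it. In the Dlx2 cluster, unnamed for the same reason, Kit was at 3.67, 35.2 and 33.3 CPM, a log2 difference of 3.25 for UV against CON, beside 2.31% of genes higher. In root-sheath-and-shaft-like cells it was at 5.28, 17.4 and 25.7 CPM, a difference of 1.71, beside 2.35% higher. Kit was higher in UV than in CON in all 3 clusters of that class. In bulge-like cells it was at 2.0, 3.8 and 5.5 CPM, which is under the minimum for a call.

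The share of cells with a Kit UMI moved in the same way. It was 9.02% of 765 CON cells, 38.5% of 478 UV cells and 58.4% of 255 Rux cells in the Top2a cluster. At 2000 UMIs per cell the shares were 0.915%, 6.28% and 9.80%. Fibroblast-like cells, which are not known to use Kit, had a Kit UMI in 0.813%, 0.847% and 0.959% of cells and in 0.248%, 0.396% and 0.270% after thinning. The median depth was 32715, 31201 and 36023 UMIs in the Top2a cluster and 5981, 6919 and 9134 in fibroblast-like cells. At equal depth the Top2a shares were above those of fibroblast-like cells in each library.

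Pigment RNA was counted in the same cells, at other ratios to Kit than in melanocytes. Per 100 Dct UMIs there were 2.61 Kit UMIs in CON, 2.70 in UV and 2.56 in Rux melanocyte-like cells. In the Top2a cluster the same ratio was 8.80, 56.1 and 75.6, and in the Dlx2 cluster 6.53, 110 and 216. Dct in the Top2a cluster was at 41.1, 47.3 and 59.4 CPM, Pmel at 11.4, 17.9 and 27.1, and Pax3 had 13, 25 and 13 UMIs there. Cells with a Kit UMI carried a pigment UMI in 78.3%, 71.2% and 54.4% of cases, against 70.8%, 63.9% and 49.1% of cells without one. Those with a Kit UMI were also deeper, with a median of 43464, 33856 and 40530 UMIs against 31870, 29057.5 and 30001. The part of depth in these shares was not tested. The highest count in a single cell was 6, 12 and 24 Kit UMIs.

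The make-up of the Top2a cluster also differed between libraries. Inner root sheath and shaft markers summed to 655, 1502 and 1370 CPM, basal keratinocyte markers to 2559, 1809 and 1704, and infundibulum markers to 2641, 1373 and 1322. Of 10 hair growth genes 9 were found, all of which passed the minimum, with 2 higher and 1 lower in UV. Of all genes there, 2.04% were higher and 1.61% lower. Krt71, an inner root sheath keratin, was at 4.92, 35.3 and 22.4 CPM, and Krt25, also of the inner root sheath, at 163, 847 and 810. Shh, a signal of the growing hair matrix, was at 28.8, 8.37 and 1.09 CPM. The part of this shift in the Kit value was not tested.

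**Figure D3:**
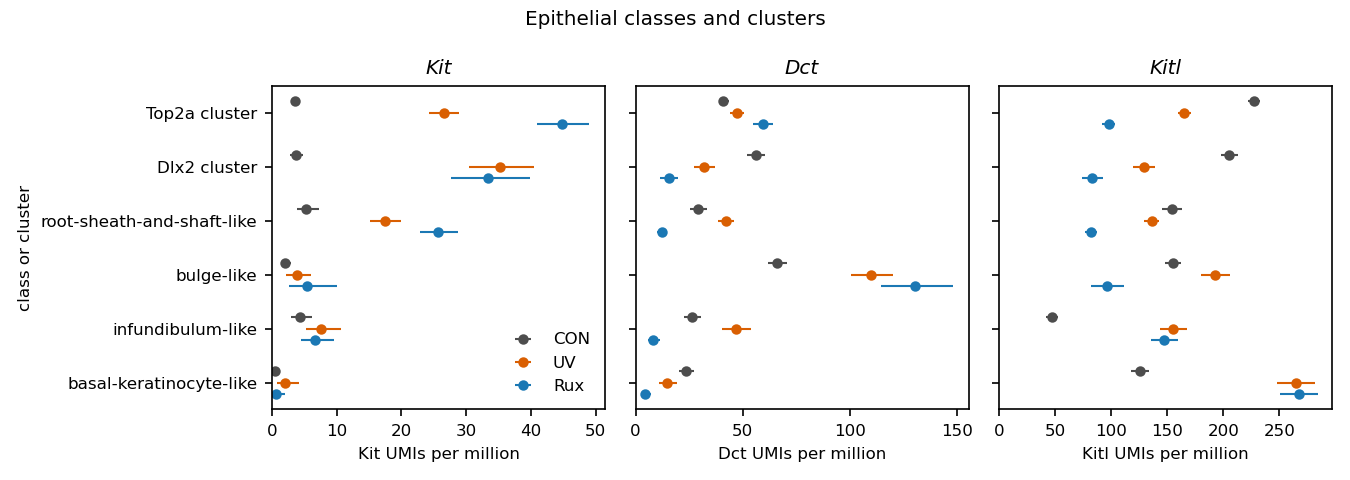
Kit, Dct and Kitl (CPM, linear axes from 0) in 6 epithelial groups of CON, UV and Rux, with points for the summed level and bars for the exact Poisson interval of the count. Kit in the Top2a cluster goes from 3.62 CPM in CON to 26.5 in UV and 44.9 in Rux, while Kitl there goes from 227 to 97.7.

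Lymphocyte-like cells also held Kit, which some innate lymphocytes are known to use. It was at 67.1 CPM in CON, 165 in UV and 142 in Rux, from 105, 255 and 324 UMIs. UV was above CON by 1.30 (0.97 to 1.64), beside 2.91% of genes higher in that class. Both clusters of the class were higher in UV, at 88.3 against 326 CPM in the Gzmc cluster and at 48.8 against 86.8 CPM in the Icos cluster.

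Kitl, the KIT ligand, came from many cells. Its level was highest in vascular-endothelium-like cells and in the Flt1 cluster. The leading genes of that cluster include the vessel gene Flt1 and, ahead of it, the pericyte marker Rgs5, so it was left unnamed. Vascular-endothelium-like cells had 686 CPM in CON, 1151 in UV and 937 in Rux, and the Flt1 cluster 839, 1235 and 894. Pericyte-like cells had 405, 403 and 368 CPM. Vascular-endothelium-like cells gave 8.48% of all Kitl UMIs in CON, 19.5% in UV and 11.2% in Rux, whereas the Top2a cluster gave 32.0%, 16.3% and 9.24%. UV was above CON by 0.75 in the endothelium, under 2-fold, and both of its clusters were higher.

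In the skin surface and upper follicle Kitl was higher in both irradiated libraries. In basal-keratinocyte-like cells it was at 125 CPM in CON, 265 in UV and 267 in Rux, a log2 difference of 1.08 (0.95 to 1.21), beside 7.29% of genes higher. Different clusters held most of this class in CON and UV, but the difference was 1.20 in the cluster led by Fcgbp and 1.05 in that led by Cstdc5. In infundibulum-like cells it was at 47.0, 155 and 147 CPM, a difference of 1.72 (1.53 to 1.92), beside 2.15% higher. Rux differed from UV by 0.01 and -0.07 in these classes.

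In the Top2a and Dlx2 clusters Kitl ran from CON down to Rux. It was at 227 CPM in CON, 165 in UV and 97.7 in Rux in the Top2a cluster, and at 205, 129 and 83.1 in the Dlx2 cluster. Root-sheath-and-shaft-like cells had 154, 136 and 82.3 CPM, but within that class the cluster led by Krt35 was higher in UV, at 191 CPM in CON and 339 in UV. Bulge-like cells had 155, 193 and 96.2 CPM, with UV the highest. Rux was the lowest of the 3 libraries in all 4 groups. Only Rux against CON passed 2-fold, by -1.22 in the Top2a cluster, beside 3.27% of genes lower, and by -1.30 in the Dlx2 cluster, beside 4.23%.

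The pooled Kitl level was also lower in both irradiated libraries in Schwann-like and in myeloid-like cells. Schwann-like cells had 509 CPM of Kitl in CON, 271 in UV and 120 in Rux, from 203, 153 and 43 UMIs. Rux was below UV by 1.17 on the log2 scale, beside 6.03% of genes lower. Myeloid-like cells had 89.2, 31.5 and 9.86 CPM, and UV was below CON by 1.50, beside 3.74% lower. Over the other processing settings this log2 difference ran from -1.59 to -0.52, so the call was not kept in all of them. Nearly all of the myeloid RNA came from the cluster led by Igkc, at 125, 46.7 and 22.0 CPM, since the cluster led by Lyz2 had 2, 4 and 10 UMIs. Leading genes of the Igkc cluster also included Ighm and Jchain, beside Cd74 and C1qa.

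Dermal fibroblasts, a known source of this ligand, were near level. Fibroblast-like cells had 110 CPM in CON, 102 in UV and 95.2 in Rux, a log2 difference of -0.10 (-0.19 to -0.02) for UV against CON and of -0.10 (-0.17 to -0.03) for Rux against UV. Within the 7 of 8 clusters of the class that held CON cells, UV against CON ran from -0.34 to 1.00, with 4 higher and 3 lower. The other cluster, led by Saa3, held 0 CON, 15 UV and 195 Rux cells of this class. The Myo16 cluster had 64.1, 76.1 and 64.8 CPM and the Gdf10 cluster 133, 159 and 134.

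Smaller groups differed in both directions for Kitl between UV and CON. The Lrrc15 cluster was at 10.7 CPM in CON and 26.1 in UV, the Cfd cluster at 42.4 and 85.4, and myogenic-like cells at 85.5 and 214. All 3 were past 2-fold upward, beside 5.2%, 4.18% and 8.04% of genes. The Pthlh cluster was at 73.8 and 19.7 CPM, past 2-fold downward, beside 5.87%.

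**Figure D4:**
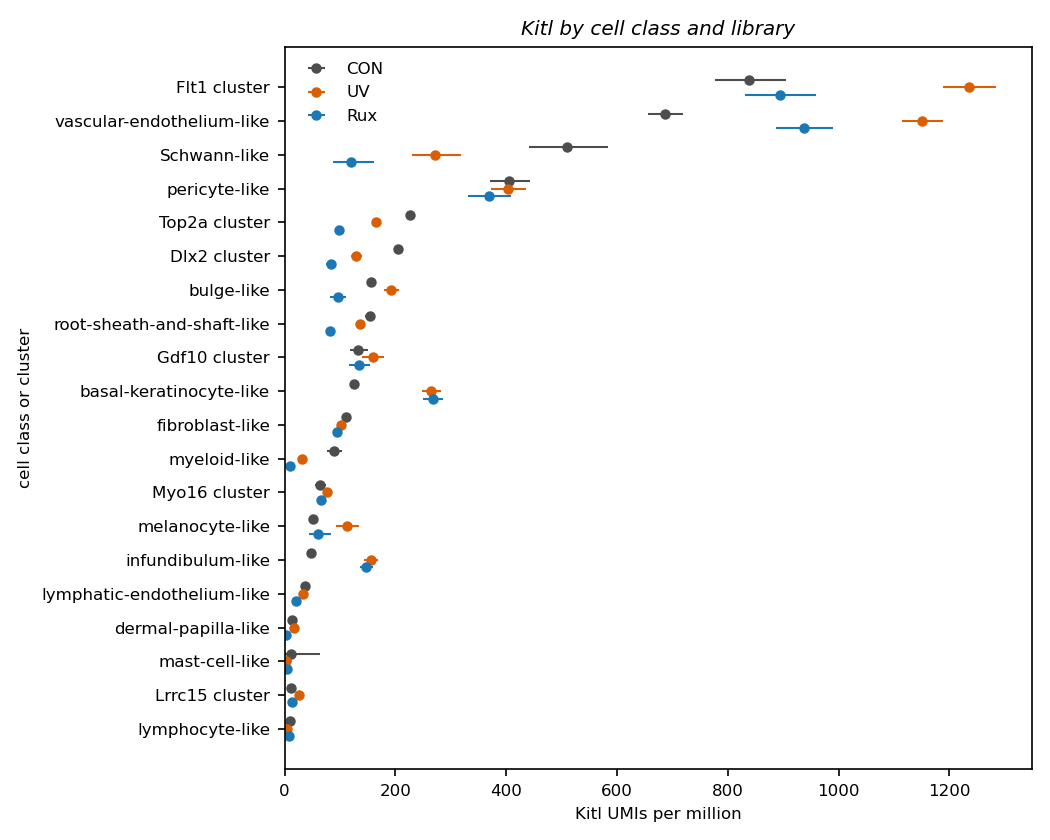
Kitl in 20 cell groups (CPM, linear axis from 0), ordered by the CON level, with points for CON, UV and Rux and bars for the exact Poisson interval. The Flt1 cluster and vascular-endothelium-like cells lie highest, and basal-keratinocyte-like and infundibulum-like cells are higher in UV and Rux than in CON.

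Mitf RNA was spread through stroma and immune cells, although the gene is named for pigment cells. Fibroblast-like cells were at 150 CPM in CON, 151 in UV and 189 in Rux as a pooled class. Within the 7 clusters of that class compared, Rux over UV ran from 0.36 to 1.40 on the log2 scale, with 7 higher. UV over CON ran from -1.26 to 0.38 there, with 2 higher and 5 lower. Myeloid-like cells were at 256, 347 and 354 CPM, above the 162, 165 and 232 CPM of melanocyte-like cells. Counts at the gene do not tell the melanocyte form of Mitf from its other start sites. The higher whole-library total of Mitf in Rux was thus made mainly outside pigment cells.

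In the papilla and in parts of the stroma Mitf differed by more than 2-fold between libraries. In dermal-papilla-like cells, the signalling cells of the hair bulb, it was at 28.9 CPM in CON, 88.2 in UV and 186 in Rux, from 159, 404 and 227 UMIs. The log2 difference was 1.61 (1.34 to 1.88) for UV against CON and 1.08 (0.83 to 1.31) for Rux against UV, beside 5.12% and 2.06% of genes higher. In the Lrrc15 cluster it was at 67.1, 128 and 236 CPM, a difference of 1.81 (1.56 to 2.08) for Rux against CON, beside 7.32% higher. In the Gdf10 cluster it was at 63.4, 59.1 and 152 CPM, a difference of 1.36 (1.01 to 1.73) for Rux against UV, beside 2.12% higher. The share of papilla cells with a Mitf UMI at equal depth was 7.69%, 18.3% and 25.6%. Myeloid markers summed to 13.8, 23.1 and 54.8 CPM in the papilla cells, mast cell markers to 3.81, 15.1 and 18.8, and papilla markers to 1320, 1071 and 995. The part of immune cell RNA in the Mitf value was not tested.

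The Myo16 cluster, fibroblast by its markers but unnamed because others led it, had Mitf at 190 CPM in CON, 175 in UV and 248 in Rux. Median-of-ratios scaling moved all genes of that cluster by 0.20 between UV and CON, more than the Mitf difference itself. Pericyte-like cells had 22.3, 51.4 and 63.3 CPM. Lymphatic-endothelium-like cells had 13.5, 16.3 and 5.12 CPM, past 2-fold downward for Rux against UV, beside 1.38% of genes.

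Of the 5 pigment genes, Mlana had the largest share of its own RNA outside melanocyte-like cells. Melanocyte-like cells held 93.0% of its UMIs in CON, 68.1% in UV and 56.0% in Rux, where fibroblast-like cells held 17.1% and the Myo16 cluster 16.9%. In the Gdf10 cluster Mlana was at 42.6, 80.3 and 95.8 CPM, past 2-fold for Rux against CON at 1.16 (0.77 to 1.57), beside 2.68% of genes higher. In the Myo16 cluster it was at 29.9, 40.6 and 52.0 CPM and in fibroblast-like cells at 16.6, 22.2 and 21.3. Within the 7 fibroblast-like clusters compared, Mlana for UV over CON ran from 0.34 to 1.08 on the log2 scale, with 7 higher. For Rux over UV it ran from -1.38 to 0.09, with 1 higher and 6 lower.

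In the Gdf10 cluster and in fibroblast-like cells Dct was above CON in UV, as Mlana was, but Dct was lowest in Rux. In the Gdf10 cluster Dct was at 33.5, 51.4 and 11.8 CPM, and in fibroblast-like cells at 33.4, 35.7 and 12.7. Per 100 Dct UMIs there were 16.9, 20.4 and 19.6 Mlana UMIs in melanocyte-like cells, but 127, 156 and 811 in the Gdf10 cluster and 106, 112 and 524 in the Myo16 cluster. In vascular-endothelium-like cells the ratio was 18.8, 40.7 and 47.1. Fibroblast-like cells with a Mlana UMI carried another pigment UMI in 34.1%, 42.4% and 20.6% of cases, against 29.9%, 32.2% and 18.5% of those without. Those with a Mlana UMI were also deeper, with a median of 7152, 7461 and 9941.5 UMIs against 5920, 6824 and 9031.5.

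**Figure D5:**
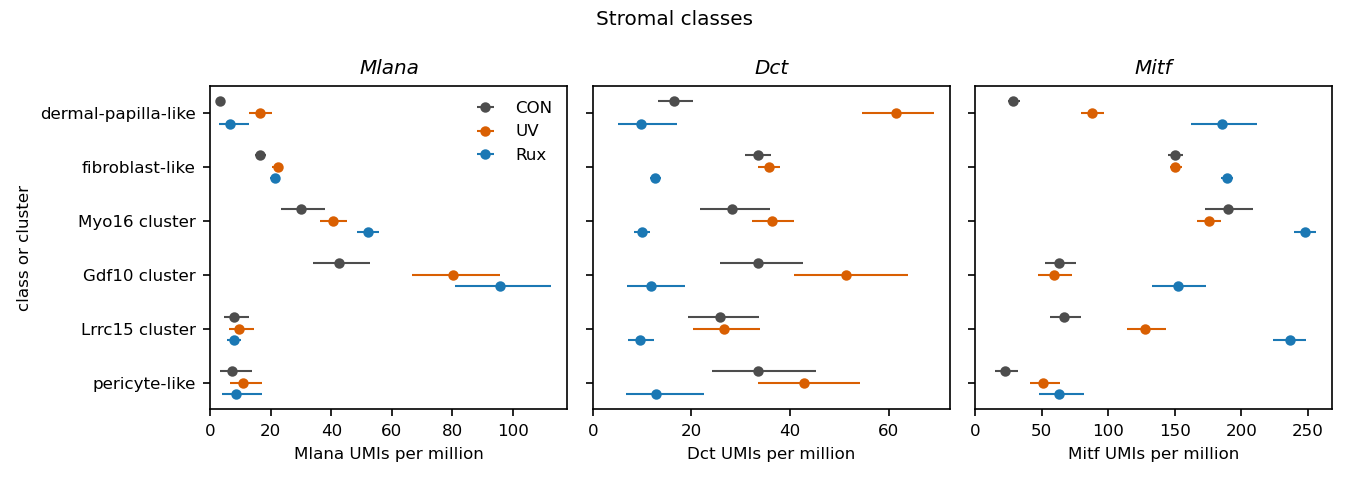
Mlana, Dct and Mitf (CPM, linear axes from 0) in 6 stromal groups of CON, UV and Rux, with points for the summed level and bars for the exact Poisson interval. In the Gdf10 cluster Mlana goes from 42.6 to 95.8 CPM between CON and Rux while Dct goes from 33.5 to 11.8, with UV above CON for both genes. Mitf in dermal-papilla-like cells goes from 28.9 to 186.

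The other pigment RNAs were counted at low levels in most cell types, and the part of free RNA in the droplets was not tested. Dct was at 36.6, 27.3 and 12.3 CPM in vascular-endothelium-like cells and at 35.8, 52.5 and 28.1 in lymphocyte-like cells. In bulge-like cells it was at 66.2, 110 and 131 CPM. In the dermal papilla Dct was at 16.5 CPM in CON, 61.5 in UV and 9.82 in Rux, and Pmel at 7.63, 35.6 and 8.18. Of 5 genes passing there for UV against CON, 4 were higher, and of 5 for Rux against UV, 4 were lower, beside 5.12% higher and 2.84% lower. Mitf was the single gene of the 10 that was higher in both steps. Other groups had lower pigment RNA in UV. Pmel in the Dlx2 cluster was at 19.5 CPM in CON and 7.67 in UV, beside 2.13% of genes lower, and Dct in the shallow Lor cluster at 695 and 271, beside 11.7%.

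Schwann-like cells, which share a neural crest origin with melanocytes, held Tyrp1 in a different way. It was at 32.6 CPM in CON, 56.7 in UV and 170 in Rux, from 13, 32 and 61 UMIs, and Rux was above UV by 1.57 (0.94 to 2.25), beside 2.5% of genes higher. Dct in the same cells was at 57.7, 76.1 and 27.8 CPM.

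For the MC1R axis the ligand side was barely visible. Pomc had 77 UMIs in CON, 98 in UV and 72 in Rux over all kept cells, or 0.546, 0.835 and 0.622 CPM. The RNA was spread over classes, with 10 UMIs in CON melanocyte-like cells and 13 in the Myo16 cluster of Rux, and no class reached the minimum for a call. Over all cells UV was above CON by 0.61 on the log2 scale (0.17 to 1.06), beyond counting error but under 2-fold, and Rux differed from UV by -0.42 (-0.88 to 0.03). Mc1r was at 3.79, 2.50 and 1.79 CPM over all cells, and melanocyte-like cells held 82.8%, 46.1% and 43.5% of its UMIs.

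A working protein of the gene a (nonagouti) blocks MC1R. RNA counts do not measure that protein, so no block of MC1R is read from the values given here. RNA of this gene was clearest in the dermal papilla, at 121 CPM in CON, 261 in UV and 200 in Rux. This is 1.11 on the log2 scale for UV against CON. Edn3, an endothelin that acts on melanocyte precursors, was at 68.1, 106 and 31.9 CPM there. Of 19 paracrine ligand genes, 9 passed in the papilla for UV against CON, with 4 higher and 1 lower, beside 5.12% of genes higher and 2.98% lower.

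In fibroblast-like cells 11 of the 19 ligands passed, and 1 was lower in UV, beside 2.31% of genes lower. That gene was Bmp4, a bone morphogenetic protein, at 79.4, 36.6 and 37.2 CPM. Edn1, the keratinocyte endothelin, was at 23.5, 60.2 and 108 CPM in basal-keratinocyte-like cells and at 136, 53.9 and 167 in vascular-endothelium-like cells.

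The genes whose levels were most like those of the set were ranked over 74 points, each the sum of a cell group in a library, from 29 groups and 18340 genes. Points of a library share its depth and free RNA, so the coefficients (Pearson r of log2 CPM + 1) are descriptive. Closest to the summed pigment genes were Trpm1 (0.93), Ptgds, Syt4, Slc45a2 and Mcoln3 (0.81), of which Trpm1, Slc45a2 and Mcoln3 were markers used to name the melanocyte-like cells. Closest to Mc1r was Snhg7os (0.80), and closest to Kit was Padi2 (0.73), with Cma2 and Il13 among its first 5. Mitf was most like Pdxk (0.77) and Kitl most like Cd151 (0.75). For Pomc the nearest was Rap2a (0.68), on few UMIs.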

How the data were processed

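Dorsal skin cells of 3 libraries, 1 each for CON, UV and Rux, were profiled with droplet single-cell RNA sequencing. The deposited files hold raw UMI counts per gene and cell, which the authors made with Cell Ranger. The file headers give Cell Ranger 7.0.0, whereas the submitters' processing notes give Cell Ranger 6.1.2, Seurat 5.3.0 and mm10. Counts were summed over all reads of a gene, so isoforms are not told apart. Columns without a sample numbered 0.

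Cells were kept when they had 200 genes or more and no more than 10% of UMIs from mitochondria, and the cells with the highest Scrublet scores (scanpy 1.11.5) were removed at 0.8% per 1000 cells. Clustering used Seurat 5.3.0 in R 4.3.3 with 2000 variable genes, 30 components and resolution 1.5, leaving out 94 genes, namely the 10 genes and 5 of the 6 pathway lists. A cluster was named from at least 3 detected markers with a lead of 1 on the log2 scale, which left 10 of 45 clusters unnamed. The 10 genes, the lists and the markers were chosen with earlier results of these data known.

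UMIs were summed per cell group and library and scaled to CPM. A call needed a 2-fold difference, a mean of 10 CPM and 20 UMIs over both libraries. Ratios carry exact 95% conditional binomial intervals, levels exact Poisson intervals and shares Clopper-Pearson intervals. UMIs of a library are not replicates, so no test between conditions was run. The named genes were all 10 genes, the 5 genes most like each by correlation, and up to 4 genes per list with the largest UV against CON ratio and at least 50 UMIs. Some further list genes were named after their values were seen. A result for 1 of the paracrine ligands is not reported here. The ratio calls were tried on simulated Poisson counts with known changes put in. That simulation held no variation between cells, mice or libraries, so it cannot speak to such variation in these data. Analyses used Python 3.11.15, numpy 2.4.6, scipy 1.17.1 and pandas 2.3.3. Gene positions came from a GRCm38 annotation, in which 32158 of the 32285 genes were found.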

Additional observations from a re-analysis of the deposited data

Results flagged for a closer look

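Some of the 10 genes passed 2-fold in opposite directions, or in some cell groups against others of opposite sign, under the same contrast. None of these differences between groups was tested, since each condition had 1 library. For Kitl the log2 difference of UV over CON was 1.72 in infundibulum-like, 1.33 in myogenic-like, 1.27 in Lrrc15 cluster, 1.15 in melanocyte-like, 1.08 in basal-keratinocyte-like and 1.00 in Cfd cluster cells. In the opposite direction it was -1.88 in the Pthlh cluster and -1.50 in myeloid-like cells. The myeloid-like value ran from -1.59 to -0.52 over the other processing settings.

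Mitf for Rux over UV was 1.36 in the Gdf10 cluster and 1.08 in dermal-papilla-like cells, but -1.63 in lymphatic-endothelium-like cells, where 12 Rux UMIs stood against 73 in UV. Pigment genes also split. Pmel for UV over CON was 2.21 in dermal-papilla-like and 1.07 in root-sheath-and-shaft-like cells, and -1.34 in the Dlx2 cluster. Dct for UV over CON was 1.89 in dermal-papilla-like cells and -1.32 in the Lor cluster. Tyrp1 for Rux over UV was 1.57 in Schwann-like and -1.88 in dermal-papilla-like cells, the latter from 6 Rux UMIs.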

How the results depend on the processing

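The cell filter, doublet removal, clustering resolution, the genes left out of clustering, the scaling and the weight per cell were each varied. The minimum of UMIs for a call, the thinning and the make-up of the melanocyte-like and fibroblast-like cells were varied as well. Of the recomputed values, 407 were labelled the same, 145 moved and 0 changed sign after passing 2-fold. Ratios and shares were the same when they stayed within the counting interval of the main value. Counts of genes past 2-fold, which have no such interval, were compared by their fold difference. Of the cell shares recomputed without thinning, 19 moved and 5 did not. The melanocyte-like share was highest in CON and lowest in Rux in all settings. It was 1.08% in CON and 0.490% in UV with the strict cell filter, 1.21% in CON with the loose filter and 1.94% in CON without doublet removal. Taking as melanocyte-like any cell with UMIs of at least 2 markers gave 2.20%, 1.84% and 0.742%. That choice also takes in cells of other clusters. Under it 6 of the genes were past 2-fold for UV over CON and 8 for Rux over UV, with Tyr at -1.39 and 1.24. The share of all genes past 2-fold was not computed for this or the other settings, so these counts have no background. Keeping presumed doublets gave 0 genes past 2-fold for UV over CON, with Kitl at 0.66, and averaging over cells also gave 0, with Kitl at 0.20. For Rux over UV it was 1 with the strict filter. Kit in mast-cell-like cells was at 0.51 for Rux over UV without doublet removal. Kitl in fibroblast-like cells was at -0.18 for Rux over UV at resolution 0.8 and at -0.022 for UV over CON with median-of-ratios scaling. The cause of these moves was not tested.

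Ratios inside single clusters and the Myo16 cluster added to the fibroblast-like cells were chosen after seeing the data. No paired analysis was possible because each condition had 1 library and no test was run. Depth limits Pomc, which reached 98 UMIs at most in a library, Mitf and Kit in the 63 mast-cell-like cells of CON, and Mc1r and Kitl in the 35 melanocyte-like cells of Rux.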

Other observations

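Growth factor genes also differed in and around the follicle. Nrg1, the neuregulin ligand of ERBB3, was at 392 CPM in CON, 54.6 in UV and 8.999 in Rux in dermal-papilla-like cells, from 2160, 250 and 11 UMIs. In bulge-like cells it had the opposite order, at 132, 581 and 2184 CPM. In the Pthlh cluster, led by Pthlh and Krt6a, it was at 51.1, 1383 and 1687 CPM. Erbb3, its receptor, was at 50.6, 65.3 and 46.4 CPM in melanocyte-like cells.

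Tgfb2, which is known to hold melanocyte stem cells at rest, was at 67.2, 160 and 254 CPM in dermal-papilla-like cells. In the Top2a cluster it was at 31.6, 71.3 and 101 CPM. Il6 in the papilla was at 21.2, 59.4 and 16.4 CPM, highest in UV. Fgf2, a melanocyte growth factor, was at 73.4, 30.01 and 23.7 CPM in the Top2a cluster.

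Beside Kit, the melanosome genes Rab38 and Gpnmb were higher in the Top2a cluster of irradiated skin. Rab38 was at 7.90, 23.6 and 34.3 CPM and Gpnmb at 4.18, 21.2 and 21.9. Slc7a11 was at 0.770, 13.7 and 9.31 CPM there, again with the highest level in UV. In the Lrrc15 cluster Ednrb was at 321, 596 and 949 CPM, with Mitf at 67.1, 128 and 236. These genes were named after their values were seen, and none of the differences has a replicate check.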
